A study of Bos taurus with 32 samples.

Results

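The genes described here are 30 genes of glucose uptake, glycolysis and pyruvate handling, chosen by name for their place in the pathway. All 30 were listed in the tables of the 9-16 cell, morula and blastocyst stages, and 29 of them, without ENO2, in the table of the 4-6 cell stage, out of 19834 genes listed in any table. Bovine embryos grown in vitro were pooled by 15 for RNA sequencing, collected at 4-6 cells, at 9-16 cells, as morulae and as blastocysts. Each stage had 4 libraries of embryos cultured with added FGF2, LIF and IGF1, called FLI embryos, and 4 of control embryos cultured without them, 32 in all. The labels give no dose, no day of collection, no breed and no embryo sex. They do not say whether the pools of a group came from separate cultures, so each p-value refers to the spread among these pools only, which may be technical. Each stage is a separate set of pools, so the stage and its collection cannot be told apart. A pool averages 15 embryos and all their cells, and in such bulk RNA fewer cells of a type and less RNA per cell cannot be told apart.

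Glycolysis splits glucose into pyruvate in the cytoplasm. Glucose enters through SLC2A transporters, is trapped by hexokinase, and is committed to the pathway by phosphofructokinase, whose activator fructose-2,6-bisphosphate is made and removed by PFKFB enzymes. Pyruvate is reduced to lactate by lactate dehydrogenase, exchanged across the plasma membrane by SLC16A transporters, or carried into mitochondria by MPC1 and MPC2 and oxidised by pyruvate dehydrogenase, which PDK kinases switch off. In mammals, the embryo of the early cleavage stages is known to live mainly on pyruvate and lactate, and its use of glucose grows around compaction and blastocyst formation. Most steps of the pathway are run by a choice of isozymes encoded by different genes, and the results below follow that choice.

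Of the 32 libraries, 30 were read here. Control replicate 4 of the morula stage held 83409 reads and control replicate 6 of the blastocyst stage held 2995, and both were left out. The others held 7013325 to 169438740 reads. Levels across stages are CPM, the reads of a gene scaled to the same library total after a joint normalisation of all 30 libraries, and the FLI and control comparison within a stage uses the signal that the authors deposited. The share of reads in genes over 3000 bases was 25.3% and 26.1% in the replicate 6 libraries of the 4-6 cell stage and 28.2% in control replicate 11 of the 9-16 cell stage, against 36.1 to 44.8% in the other 13 libraries of these stages. Among morulae, control replicates 1 and 3 had 29.4% and 26.8% of reads in genes under 1000 bases, against 12.5 to 18.2% in the other 5 libraries. The 6 oocyte genes, GDF9, BMP15, ZAR1, NLRP5, OOEP and MOS, summed to 3751 to 5471 CPM at 4-6 cells and to 20.1 to 90.6 CPM from the morula stage on. The listed genes among CDX2, GATA3, KRT8, KRT18, NANOG, SOX2, GATA6 and SOX17, markers of blastocyst lineages, summed to 49.4 to 128 CPM at 4-6 cells and to 27600 to 54860 CPM at the blastocyst stage. Listed markers of cumulus and granulosa cells summed to 176 to 354 CPM up to 9-16 cells and to 12.2 to 34.3 CPM later. Listed sperm markers reached at most 120 CPM, in a control morula library, and blood and endothelial markers at most 129 CPM, in a blastocyst library.

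The 30 genes held a larger share of the reads in morulae and blastocysts than at the 2 earlier stages. The ranges of those 2 early stages overlapped, and between them SLC2A3 alone went from a mean of 9.71 to 973 CPM. The 30 genes together had 0.186 to 0.260% of reads at 4-6 cells, 0.214 to 0.375% at 9-16 cells, 0.434 to 1.06% in morulae and 1.19 to 2.33% in blastocysts. The counts of genes that rose or fell are given here for both arms together. The next paragraph gives each arm alone beside the shares of all genes, and the share of all genes called in both arms was not computed. Between 4-6 and 9-16 cells 4 genes rose in both arms, the transporters SLC2A1 and SLC2A3, HK2 and ALDOC. Between 9-16 cells and the morula 18 genes rose and 5 fell in both arms. Between morula and blastocyst 12 genes rose and 1, ALDOC, fell in both arms.

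Counts of genes called are those with a limma adjusted p under 0.05 over 13381 genes, in a joint model of all 8 groups on log2(CPM + 1). From 4-6 to 9-16 cells, 5 of 29 genes were called in controls, all higher, where 26% of all genes were called, 13.7% higher and 12.4% lower. In FLI embryos 6 were called, 4 higher and 2 lower, against 31.3% of all genes. From 9-16 cells to morula, 24 of 29 were called in controls, 18 higher and 6 lower, against 73.6% of all genes, 39% higher and 34.6% lower. In FLI embryos 24 were called there, 19 higher and 5 lower, against 73.3% of all genes, 40.6% higher and 32.7% lower. From morula to blastocyst, 15 were called in controls, 14 higher and 1 lower, against 32.9% of all genes, 17.6% higher and 15.2% lower. In FLI embryos 18 were called, 16 higher and 2 lower, against 40.7% of all genes, 18.8% higher and 22% lower. The median log2 change of the 29 genes was -0.02, 1.85 and 0.59 in controls at the 3 steps, beside -0.14, 0.13 and -0.02 over all genes. In FLI embryos it was -0.11, 2.26 and 1.10, beside -0.11, 0.23 and -0.08. Without the 3 libraries of 4-6 and 9-16 cells that were low in long genes, 7 genes were called in controls and 8 in FLI embryos at the earliest step, and 25 and 23 into the morula. The shares of all genes called in that refit are not given here, so these counts cannot be read against them. TPI1 passed the filter on low values through its blastocyst level and so had to differ at that step. It is included in the counts of genes higher into the blastocyst in both arms.

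**Figure D1:**
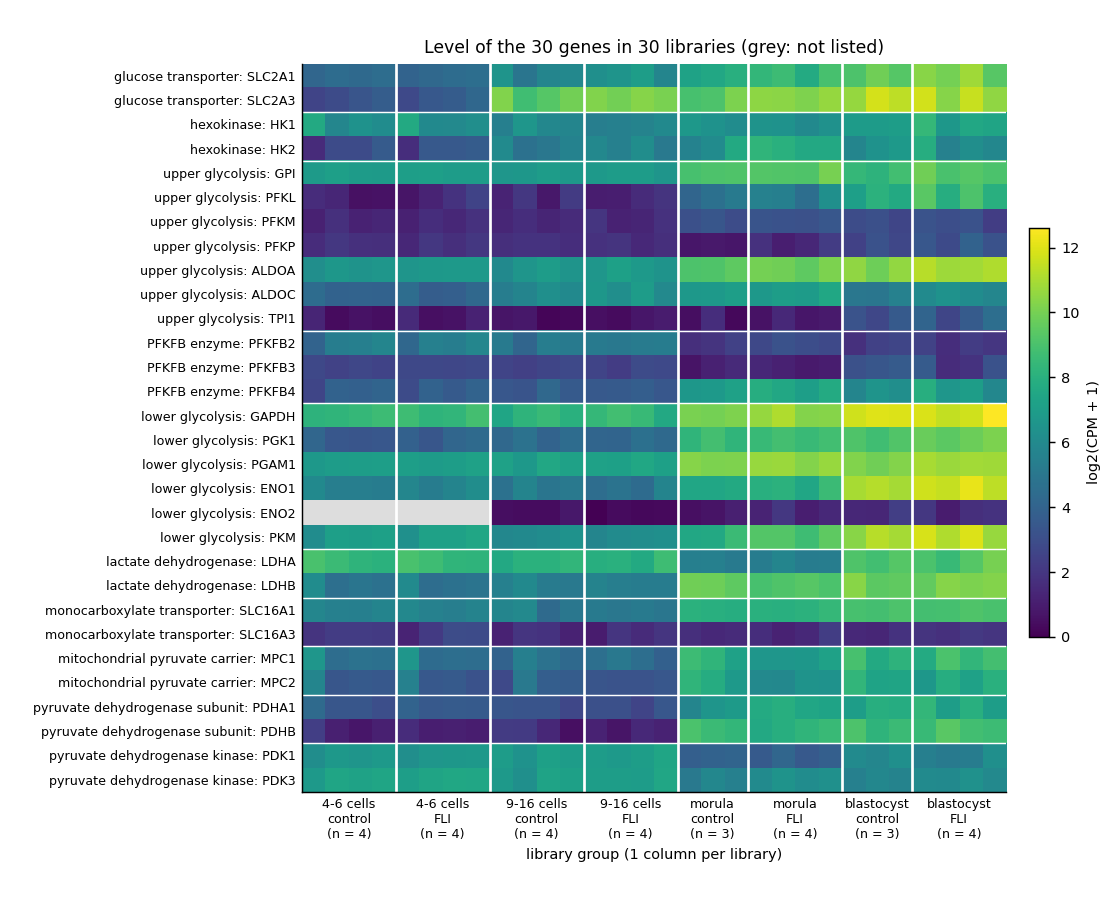
Level of each gene, as log2(CPM + 1) from 0 (dark) upward, in each of the 30 libraries, 1 column per library and 1 row per gene, ordered by role. The early stages are dark for PDHB, PFKL and PGK1 and the later stages bright, LDHA and PDK1 dip at the morula stage, and ENO2, in grey, was not listed at 4-6 cells.

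Both glucose transporters rose at the earliest step, between 4-6 and 9-16 cells. SLC2A3 (GLUT3, a transporter of high affinity for glucose, chromosome 5, 101438341 to 101451219, minus strand of ARS-UCD1.2) had 4.93 to 17.4 CPM (median 9.64) in the 8 libraries of 4-6 cells. At 9-16 cells it had 424 to 1283 CPM (median 1036) in 8 libraries, in morulae 484 to 1585 CPM (median 1144) in 7 libraries, and in blastocysts 1270.3 to 3589 CPM (median 2599) in 7 libraries. Every library of 9-16 cells lay above every library of 4-6 cells, while the ranges of 9-16 cells and morulae overlapped. The mean rose 99.1-fold in controls and 101-fold in FLI embryos, a log2 change of 6.42 ± 0.37 in controls and 6.61 ± 0.37 in FLI embryos (adjusted p = 1.75e-13 and 7.08e-14). It rose again from morula to blastocyst in controls, by 1.86 on the log2 scale (adjusted p = 0.00137, limma), and was 0.62 in FLI embryos, which did not pass (adjusted p = 0.189). SLC2A1 (GLUT1, the widespread basal transporter) rose at every step in both arms. It had 15.2 to 22.7 CPM (median 19.7) at 4-6 cells, 28.6 to 130.4 CPM (median 67.2) at 9-16 cells, 152 to 492 CPM (median 251) in morulae and 539 to 1786 CPM (median 941) in blastocysts, and each of these 4 ranges lay above the one before it. Its log2 change from 4-6 to 9-16 cells was 1.40 ± 0.33 in controls and 2.08 ± 0.33 in FLI embryos (adjusted p = 0.00216 and 1.62e-05).

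Per length, as CPM per kb of merged exons, SLC2A3 supplied 24.3% ± 5.89 (SD, n = 8) of the 2 transporters at 4-6 cells and 90.1% ± 2.17 at 9-16 cells. It then supplied 71.6% ± 4.59 in morulae and 62.0% ± 9.96 in blastocysts (n = 7 each). The log2 ratio of SLC2A3 to SLC2A1 reads, which needs no normalisation between stages, moved by 4.89 at 4-6 to 9-16 cells (adjusted p = 0.00119) and by -1.88 from there to the morula (adjusted p = 0.00119). These and the later tests of ratios are two-sided exact permutation tests of stage within each arm, adjusted over 38 pairs and steps. At 9-16 cells SLC2A3 was the highest of the 30 genes per length, at 239 ± 74.2 CPM per kb, ahead of GAPDH at 161 ± 49.0, a gap within their spread.

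**Figure D2:**
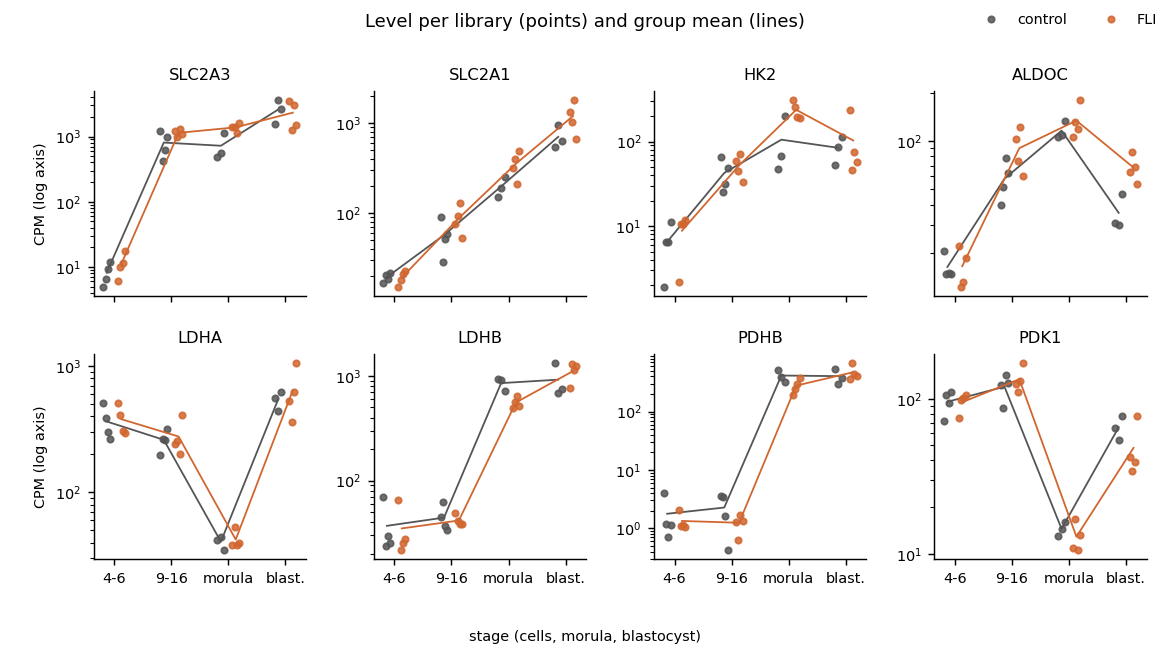
CPM on a log axis of 8 genes by stage, each point a library and each line a group mean, controls in grey and FLI in orange. SLC2A3 lies at 4.93 to 17.4 CPM at 4-6 cells and at 424 to 1283 at 9-16 cells, PDHB at 0.431 to 3.57 at 9-16 cells and at 195 to 524 in morulae, and LDHA and PDK1 have their lowest values in morulae.

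Hexokinase, which phosphorylates glucose on entry, changed its balance of isozymes between HK1 and HK2. HK2, the inducible form (chromosome 11, 9743172 to 9810098, minus strand), had 1.91 to 11.9 CPM (median 8.46) at 4-6 cells and 25.1 to 71.4 CPM (median 46.5) at 9-16 cells, with no overlap. In morulae it had 47.0 to 307 CPM (median 196) and in blastocysts 45.9 to 234 CPM (median 75.3). The log2 change from 4-6 to 9-16 cells was 2.61 ± 0.51 in controls and 2.57 ± 0.51 in FLI embryos (adjusted p = 3.16e-04 and 2.96e-04). It rose into the morula in FLI embryos by 2.19 on the log2 scale (adjusted p = 4.57e-04, limma), while the control change of 1.10 did not pass (adjusted p = 0.0759). The test of that difference between arms did not pass either. From morula to blastocyst HK2 fell in FLI embryos by 1.49 (adjusted p = 0.0224), a call lost when any 1 of FLI replicates 2 and 4 of the morula stage and 6, 7 and 8 of the blastocyst stage was left out. HK1, the basal form, had 53.6 to 203 CPM (median 71.8), 40.8 to 99.0 CPM (median 51.3), 62.6 to 104 CPM (median 84.8) and 103 to 341 CPM (median 127) in the same order of stages. It rose in 1 of the 6 steps and arms, from morula to blastocyst in FLI embryos (log2 1.204, adjusted p = 0.0130, limma), and that call was lost without FLI replicate 5. HK2 was 13.8% ± 8.36 of the 2 genes per length at 4-6 cells, 55.7% ± 15.0 at 9-16 cells, 72.1% ± 17.1 in morulae and 44.9% ± 8.66 in blastocysts. Its log2 ratio to HK1 moved by 3.52 at the 4-6 to 9-16 cell step (adjusted p = 0.00119, exact test) and by -1.67 from morula to blastocyst (adjusted p = 0.0136). These moves are means of both arms, and at the last step the ratio moved by -0.63 in controls and -2.72 in FLI embryos. Per length the HK2 share went from 59.1% ± 20.6 to 50.04% ± 8.84 in controls (n = 3 each), a gap within its spread, and from 81.9% ± 2.51 to 41.1% ± 7.20 in FLI embryos (n = 4 each). A difference between arms in the move of this ratio was not tested. The lowest HK2 levels among morulae were those of control replicates 1 and 3.

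In upper glycolysis the phosphofructokinase of liver type, PFKL, came to dominate its family. PFKL had 0.467 to 4.88 CPM (median 1.49) at 4-6 cells, 0.739 to 3.56 CPM (median 1.67) at 9-16 cells, 16.6 to 75.7 CPM (median 34.5) in morulae and 139 to 660.3 CPM (median 244) in blastocysts. The ranges of 4-6 and 9-16 cells overlapped, and those of morulae and blastocysts lay apart from them and from each other. Its log2 change was 3.07 ± 0.46 in controls and 4.06 ± 0.43 in FLI embryos (adjusted p = 1.46e-06 and 2.97e-09) into the morula and 2.997 ± 0.49 in controls and 3.11 ± 0.43 in FLI embryos (adjusted p = 3.04e-05 and 1.84e-06) into the blastocyst. PFKM, the muscle form, rose once, into the morula, by 1.67 and 1.71 on the log2 scale, to 6.68 to 9.72 CPM. PFKP, the platelet form, had 1.69 to 3.19 CPM at 4-6 cells, fell into the morula in controls (log2 -0.96, adjusted p = 0.00133, limma; -0.09 in FLI embryos, adjusted p = 0.742) and rose into the blastocyst, to 4.52 to 14.6 CPM. PFKL made up 29.9% ± 14.6 of the 3 genes per length at 4-6 cells, 34.0% ± 12.5 at 9-16 cells, 78.5% ± 7.03 in morulae and 95.9% ± 1.28 in blastocysts. The log2 ratio of PFKL to PFKP moved by 5.14 into the morula (adjusted p = 0.00119, exact test).

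Aldolase, which cleaves fructose-1,6-bisphosphate, changed its balance for a time. ALDOC, the form best known from brain, had 12.2 to 22.1 CPM (median 14.9) at 4-6 cells, 39.9 to 123 CPM (median 68.8) at 9-16 cells, 106 to 179.5 CPM (median 119) in morulae and 29.8 to 85.9 CPM (median 54.2) in blastocysts. It rose from 4-6 to 9-16 cells by 1.74 ± 0.25 in controls and 2.37 ± 0.25 in FLI embryos (adjusted p = 4.96e-06 and 2.19e-08) on the log2 scale. It fell from morula to blastocyst by 1.70 in controls and 0.96 in FLI embryos (adjusted p = 5.01e-05 and 0.00354, limma). ALDOA, the widespread form, had 73.7 to 114 CPM at 4-6 cells and 63.3 to 142 at 9-16 cells, then rose to 541 to 1116 in morulae and 911 to 2492 in blastocysts. ALDOC was 14.7% ± 3.97 of both per length at 4-6 cells, 41.9% ± 6.91 at 9-16 cells, 14.2% ± 2.45 in morulae and 3.08% ± 0.884 in blastocysts. All 3 steps of that ratio passed the exact test, with log2 moves of 2.09, -2.11 and -2.45 (adjusted p = 0.00119, 0.00119 and 0.00271). The rise of ALDOC itself into the morula was small in FLI embryos (log2 0.59, adjusted p = 0.0379, limma) and was lost under 9 of the alternatives tried, among them the fit without FLI replicate 7 of the morula stage, where it was 0.11.

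GPI, which converts glucose-6-phosphate to fructose-6-phosphate, rose once, into the morula. It had 95.6 to 125 CPM at 9-16 cells and 499 to 1042 CPM in morulae, a log2 change of 2.30 ± 0.22 in controls and 2.59 ± 0.21 in FLI embryos (adjusted p = 7.42e-10 and 1.39e-11). TPI1, which interconverts the 2 triose phosphates, was listed at 0.308 to 1.84 CPM at 4-6 cells, 0.114 to 0.973 at 9-16 cells and 0.197 to 2.16 in morulae, and at 5.33 to 22.4 CPM in blastocysts. In blastocysts that is 6.42 ± 3.46 CPM per kb, against 2089 ± 602 for GAPDH, the enzyme that acts next. Genes of glycolysis have many near-identical processed copies in mammalian genomes, and how the authors' counting treated reads shared with copies, or reads of the other strand, is not given in the sources used here. The levels of TPI1, GAPDH, PGK1, PGAM1, ENO1, PKM, LDHA and LDHB are therefore uncertain.

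The enzymes that set fructose-2,6-bisphosphate exchanged places at the morula stage. PFKFB2, known from heart and kidney, had 15.1 to 53.8 CPM (median 41.6) at 4-6 cells and 16.4 to 39.6 CPM (median 35.0) at 9-16 cells, and then 2.27 to 7.93 CPM (median 5.68) in morulae and 2.11 to 5.18 CPM (median 3.66) in blastocysts. It fell into the morula by 2.92 in controls and 2.28 in FLI embryos on the log2 scale (adjusted p = 8.31e-08 and 1.24e-06, limma). PFKFB4, known from testis and from cells short of oxygen, went the other way. It had 5.28 to 15.6 CPM at 4-6 cells, 8.76 to 18.4 at 9-16 cells, 102 to 231 in morulae and 53.4 to 239 in blastocysts, a log2 change into the morula of 3.25 ± 0.38 in controls and 3.98 ± 0.35 in FLI embryos (adjusted p = 2.29e-08 and 1.09e-10). PFKFB3, the form with the highest kinase activity, had 3.80 to 6.35 CPM at 9-16 cells, fell to 0.582 to 1.85 CPM in morulae and rose to 2.03 to 11.5 CPM in blastocysts. PFKFB4 was 27.8% ± 4.72 of the 3 genes per length at 9-16 cells and 97.0% ± 0.762 in morulae, and PFKFB2 went from 63.1% ± 5.32 to 2.44% ± 0.774. The ratio of PFKFB4 to PFKFB3 moved by 5.90 into the morula and by -3.26 into the blastocyst (adjusted p = 0.00119 and 0.00271, exact test).

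**Figure D3:**
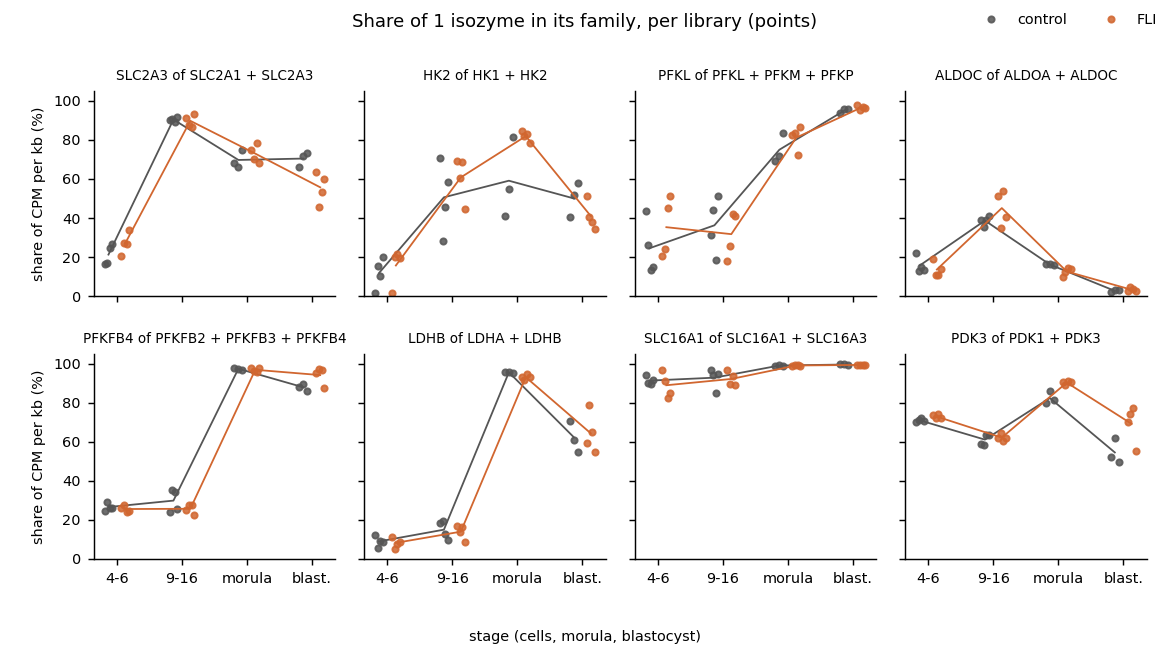
Share of 1 isozyme in its family per library, as a percentage of the family's CPM per kb, by stage, controls in grey and FLI in orange, with lines through group means. LDHB goes from 14.5% at 9-16 cells to 94.1% in morulae, PFKFB4 from 27.8% to 97.0%, and SLC2A3 from 24.3% at 4-6 cells to 90.1% at 9-16 cells.

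Of the enzymes of lower glycolysis, which make ATP and pyruvate, all 5 rose into the morula in both arms, and GAPDH, ENO1 and PKM rose again into the blastocyst in both arms. PGK1, the X-linked kinase that makes the pathway's earliest ATP, had 9.00 to 19.4 CPM (median 11.9) at 4-6 cells and 15.5 to 26.0 CPM (median 18.5) at 9-16 cells. It then had 302 to 457 CPM (median 377) in morulae and 433 to 1138 CPM (median 690.2) in blastocysts, and its log2 change into the morula was 4.07 ± 0.26 in controls and 4.41 ± 0.24 in FLI embryos (adjusted p = 1.70e-13 and 5.08e-15). Its rise from 4-6 to 9-16 cells in controls, by 0.80 (adjusted p = 0.0137, limma), was lost when any 1 of control replicates 7, 8, 9 and 11 was left out. ENO1, the main enolase, had 38.1 to 72.4 CPM (median 45.4), 20.2 to 51.6 CPM (median 28.2), 173 to 382 CPM (median 205) and 1911 to 4689.8 CPM (median 2593) in the order of stages. Its rise into the blastocyst was 11.3-fold in control means and 12.5-fold in FLI means, a log2 change of 3.49 ± 0.33 in controls and 3.66 ± 0.29 in FLI embryos (adjusted p = 4.81e-09 and 1.04e-10). PKM, pyruvate kinase, which makes pyruvate, had 68.8 to 177 CPM (median 141) at 4-6 cells, 52.9 to 84.1 CPM (median 68.0) at 9-16 cells, 188 to 717 CPM (median 417) in morulae and 1336 to 4024 CPM (median 2191) in blastocysts, and no blastocyst library overlapped an earlier one. From 4-6 to 9-16 cells PKM fell in FLI embryos by 0.99 (adjusted p = 0.0174, limma), and ENO1 by 0.88 (adjusted p = 0.0193). Both calls were lost without FLI replicate 10 of the 9-16 cell stage (PKM -0.88, ENO1 -0.77). The ENO1 call was also lost without FLI replicate 9 of the 4-6 cell stage (-0.77) or FLI replicate 12 of the 9-16 cell stage (-0.73). PGAM1, which moves the phosphate of 3-phosphoglycerate, rose once, with 106 to 189 CPM at 9-16 cells and 1128 to 1703 CPM in morulae. GAPDH, which makes NADH, had 173 to 442 CPM at 9-16 cells, 1001 to 2193 in morulae and 2774 to 6289.6 in blastocysts. ENO2, the enolase of neurons, did not exceed 4.09 CPM in any library, and ENO1 made up 99.4% ± 0.438 of both per length at 9-16 cells.

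Lactate dehydrogenase changed its subunit most. LDHA, the subunit that favours making lactate (chromosome 29, 26290893 to 26301350, minus strand), had 263 to 512 CPM (median 346) at 4-6 cells and 197 to 412 CPM (median 258) at 9-16 cells. In morulae it had 35.2 to 53.0 CPM (median 39.6) and in blastocysts 362 to 1059 CPM (median 555). No morula library reached the level of any library of another stage. LDHB, the subunit that favours making pyruvate from lactate (chromosome 5, 88544523 to 88562783, plus strand), had 21.9 to 69.5 CPM (median 26.6) at 4-6 cells, 33.4 to 61.9 CPM (median 39.6) at 9-16 cells, 495 to 934 CPM (median 648) in morulae and 687 to 1328 CPM (median 1128) in blastocysts. LDHA fell into the morula by 2.64 in controls and 2.64 in FLI embryos on the log2 scale (adjusted p = 1.58e-08 and 3.22e-09, limma), while LDHB rose by 4.27 ± 0.34 in controls and 3.72 ± 0.32 in FLI embryos (adjusted p = 1.75e-11 and 4.70e-11). LDHA then rose into the blastocyst by 3.70 ± 0.32 in controls and 3.80 ± 0.28 in FLI embryos (adjusted p = 1.13e-09 and 3.46e-11). Its blastocyst range overlapped those of 4-6 and 9-16 cells. LDHB rose there in FLI embryos by 0.97 (adjusted p = 0.0154) and was 0.06 in controls (adjusted p = 0.926). LDHB was 8.62% ± 2.42 of both per length at 4-6 cells, 14.5% ± 4.01 at 9-16 cells, 94.1% ± 1.58 in morulae and 63.4% ± 8.73 in blastocysts. The log2 ratio of LDHB to LDHA reads averaged -2.58 ± 0.56 at 9-16 cells and 4.39 ± 0.07 in morulae among controls. Over both arms it moved by 6.69 (adjusted p = 0.00119, exact test) and then by -3.27 into the blastocyst (adjusted p = 0.00271). The former was the largest move of the 38 ratios and steps compared.

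Of the plasma membrane transporters of lactate and pyruvate, SLC16A1 (MCT1) was the main one at every stage. It had 41.0 to 58.1 CPM at 4-6 cells, 19.7 to 61.2 at 9-16 cells, 235 to 341 in morulae and 453 to 566 in blastocysts, and made up 90.1% ± 4.64 of both per length at 4-6 cells and 99.4% ± 0.127 in blastocysts. Its log2 change into the morula was 2.71 ± 0.25 in controls and 3.02 ± 0.24 in FLI embryos (adjusted p = 3.77e-10 and 8.10e-12). SLC16A3 (MCT4), the exporter of strongly glycolytic cells, did not exceed 6.69 CPM and was called at none of the 3 consecutive steps in either arm.

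The subunits of pyruvate dehydrogenase were low before the morula and then rose. PDHB, the beta subunit of pyruvate dehydrogenase (chromosome 22, 42918413 to 42958633, plus strand), had 0.722 to 4.08 CPM (median 1.13) at 4-6 cells and 0.431 to 3.57 CPM (median 1.49) at 9-16 cells, and 195 to 524 CPM (median 327) in morulae and 293 to 677 CPM (median 403) in blastocysts. The mean rose 182-fold in controls and 223-fold in FLI embryos into the morula, a log2(CPM + 1) change of 7.10 ± 0.37 in controls and 6.94 ± 0.34 in FLI embryos (adjusted p = 3.34e-15 and 7.27e-16), which understates the rise of so low a gene. PDHA1, its X-linked alpha subunit and the target of the PDK kinases, had 7.12 to 19.5 CPM (median 10.7), 4.98 to 9.57 CPM (median 8.09), 53.4 to 236 CPM (median 157) and 129.8 to 328 CPM (median 221) in the order of stages, a log2 change of 3.27 ± 0.34 in controls and 4.56 ± 0.32 in FLI embryos (adjusted p = 2.80e-09 and 7.56e-13) into the morula. The PDHB to PDHA1 ratio moved by 3.75 on the log2 scale at that step (adjusted p = 0.00119, exact test). MPC1 and MPC2 (chromosome 9, 101357585 to 101370280, minus strand, and chromosome 3, 752398 to 783103, plus strand) form the pyruvate carrier of the inner mitochondrial membrane. MPC1 had 20.3 to 99.4 CPM (median 23.7) at 4-6 cells, 13.9 to 42.8 CPM (median 23.0) at 9-16 cells, 97.4 to 398 CPM (median 146) in morulae and 199 to 519 CPM (median 320.4) in blastocysts. At 4-6 cells FLI replicate 6, at 99.4 CPM, lay above the lowest morula library at 97.35, and control replicate 6 was just below it at 97.34. MPC2 had 8.04 to 53.3 CPM at 4-6 cells, 5.90 to 33.5 at 9-16 cells, 59.1 to 309.6 in morulae and 103 to 315 in blastocysts. From 9-16 cells to morula their log2 changes were 3.42 ± 0.52 in controls and 2.26 ± 0.48 in FLI embryos (adjusted p = 1.85e-06 and 1.59e-04) for MPC1, and 3.81 ± 0.56 in controls and 2.90 ± 0.51 in FLI embryos (adjusted p = 9.00e-07 and 1.51e-05) for MPC2. The gene models of both are short, 330 and 762 bases, and both were highest among morulae in control replicates 1 and 3, the libraries with the most reads in short genes.

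PDK1 and PDK3, kinases that switch pyruvate dehydrogenase off, fell at the step where its subunits rose. Levels of any other PDK kinase are not given here. PDK1 had 71.4 to 111 CPM (median 99.8) at 4-6 cells, 86.8 to 169.8 CPM (median 126) at 9-16 cells, 10.6 to 16.9 CPM (median 13.2) in morulae and 34.1 to 77.6 CPM (median 54.1) in blastocysts, and no morula library reached any library of another stage. It fell into the morula by 2.94 in controls and 3.28 in FLI embryos (adjusted p = 7.71e-11 and 1.46e-12, limma), and rose into the blastocyst by 2.09 ± 0.27 in controls and 1.77 ± 0.23 in FLI embryos (adjusted p = 8.89e-07 and 1.02e-06). PDK3, an X-linked kinase of the same family, had 108 to 184 CPM at 4-6 cells, 77.6 to 175 at 9-16 cells, 33.5 to 89.4 in morulae and 44.9 to 83.7 in blastocysts, and fell into the morula by 1.42 and 0.87 (adjusted p = 7.15e-06 and 9.44e-04). Summed per length, the 2 kinases held 77.1 ± 19.3 CPM per kb in controls at 9-16 cells and 20.9 ± 4.61 in morulae. The 2 subunits held 3.21 ± 1.25 and 259 ± 49.7. These sums are levels of mRNA, and the 4 genes passed the test at this step each on its own. PDP2, a phosphatase that switches the complex on, fell into the morula too, as given below. The activity of the complex was not tested.

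**Figure D4:**
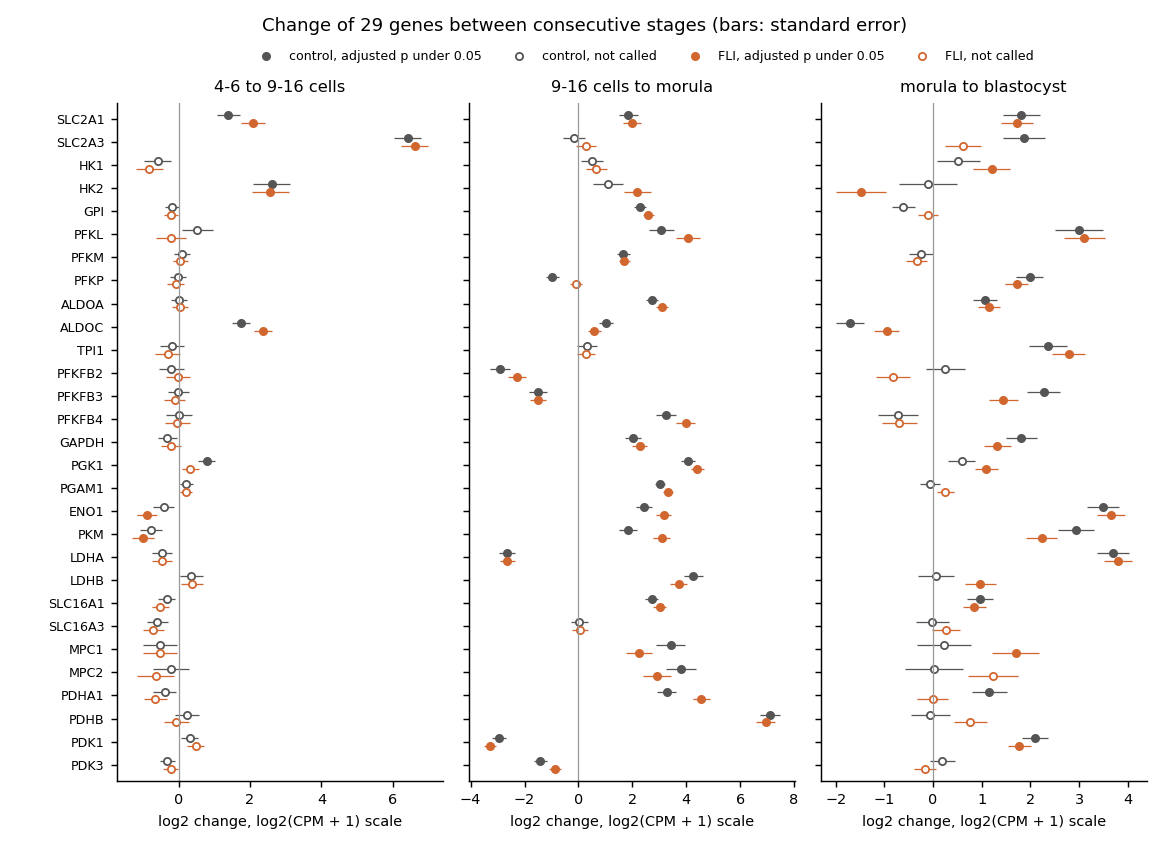
Log2 change of 29 genes (ENO2 not listed at 4-6 cells) between consecutive stages on the log2(CPM + 1) scale, with standard errors, controls in grey and FLI in orange, filled where the limma adjusted p was under 0.05. The middle panel holds 24 filled points in each arm, with LDHA, PDK1, PDK3, PFKFB2 and PFKFB3 on the left in both arms.

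Between 4-6 cells and blastocyst, 23 of 29 genes were higher and 2 lower in controls, against 73.8% of all genes called, 39.7% higher and 34.1% lower. In FLI embryos 24 were higher and 3 lower, against 77.7% of all genes, 41.2% higher and 36.5% lower. Those higher in both arms include TPI1, which passed the filter on low values through its blastocyst level. PFKFB2 and PDK3 were lower in both arms, by 2.86 and 1.54 on the log2 scale in controls. PDK1 was called lower in FLI embryos, where the log2 change was -1.03, against -0.53 in controls (adjusted p = 3.03e-04 and 0.0601, limma). The order of genes per length turned over. At 4-6 cells LDHA led at 196 ± 51.3 CPM per kb (SD, n = 8), with GAPDH at 187 ± 35.7, a gap within their spread, and MPC1 at 126 ± 106. In morulae PGAM1 led at 758 ± 137, with GAPDH at 725 ± 219 and MPC1 at 558 ± 358, again within their spread, and LDHA was at 21.9 ± 3.09. In blastocysts GAPDH led at 2089 ± 602, ENO1 was at 1424 ± 483 and MPC1 at 1076 ± 404. The lowest at that stage were ENO2 at 0.742 ± 0.340, PFKFB2 at 0.8285 ± 0.271 and SLC16A3 at 1.02 ± 0.249. MPC1 is placed by a gene model of 330 bases, which makes its level per length less certain.

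Genes of neighbouring pathways, from lists chosen by role, were followed through the same steps, and their counts stand beside the share of all genes called at each step. That share was 26% in controls and 31.3% in FLI embryos from 4-6 to 9-16 cells. Into the morula it was 73.6% and 73.3%, with 39% and 40.6% of all genes higher and 34.6% and 32.7% lower. Among 7 genes of the pentose phosphate pathway, which makes NADPH and ribose from glucose-6-phosphate, TKT rose from 4-6 to 9-16 cells by 5.35 on the log2 scale in controls and 5.31 in FLI embryos, RPE rose too and PGD fell. From 9-16 cells to morula 6 of the 7 rose in controls and 5 in FLI embryos, with medians of 1.12 and 1.29 beside 0.13 and 0.23 over all genes, led by TALDO1 at 5.20 and 4.62 and PGLS at 3.20 and 2.82. Of 8 other genes of pyruvate dehydrogenase and pyruvate carboxylation, 2 rose from 4-6 to 9-16 cells in both arms. They were PDP2, a phosphatase that switches the complex on, at 4.83 and 5.62, and DLD, its shared E3 subunit, at 1.96 and 1.74. PDP2 fell into the morula by 3.56 in controls and 2.79 in FLI embryos, and PC, pyruvate carboxylase, rose by 2.41 and 3.16. Of 6 other sugar and monocarboxylate transport genes tested, none was called at 4-6 to 9-16 cells, and 3 rose and 3 fell into the morula in each arm. BSG, the chaperone that brings SLC16A1 to the membrane, rose by 4.46 and 4.39 there, and SLC5A1, a sodium-coupled glucose transporter, fell by 3.88 and 3.05. Adjusted p-values of the changes given were at most 2.49e-05 (limma).

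Among 13 other isozymes, LDHC, the lactate dehydrogenase of germ cells, fell from 4-6 to 9-16 cells by 1.81 in controls and 2.01 in FLI embryos, and again into the morula by 2.46 and 2.65. BPGM, which makes 2,3-bisphosphoglycerate, fell into the morula by 3.59 and 4.30. HKDC1, a further hexokinase, rose into the blastocyst by 4.04 and 3.80, and PKLR, the pyruvate kinase of liver and red cells, by 2.18 and 2.44. Among 9 genes of gluconeogenesis and glycogen, 5 rose and 1 fell into the morula in each arm, 6 of 9 called at a step where 73.6% and 73.3% of all genes were, with G6PC3, a glucose-6-phosphatase, at 2.69 and 2.88 and PYGB, a glycogen phosphorylase, down by 2.65 and 2.23. Among 12 regulators of glycolytic genes, MYC rose from 4-6 to 9-16 cells by 5.06 and 5.29 and then fell into the morula by 3.40 and 3.38. EPAS1, the factor HIF2A that answers to low oxygen, fell into the morula by 5.45 and 5.27. PPARGC1A, a coactivator of mitochondrial genes, fell there by 5.37 and 5.66. In all, 8 of these 12 regulators fell and 2 rose in controls at that step, while 7 fell and 2 rose in FLI embryos, with medians of -1.19 and -0.97. Of all genes 34.6% fell and 39% rose there in controls, and 32.7% and 40.6% in FLI embryos. Whether these factors bear on the 30 genes was not tested. Adjusted p-values of the changes given were at most 2.56e-04 (limma).

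Gene length went with part of the changes between stages. From 9-16 cells to morula in controls, the log2 change had a Spearman correlation with exon length of -0.53 across the 29 genes and of -0.31 across all 13381, shorter genes rising more. In FLI embryos it was -0.33 and -0.21. Genes are not independent replicates, and these values share the libraries and their read composition. The part of length in the changes was not tested. A library poor in long genes can shift a ratio of a long to a short gene.

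Whether added FGF2, LIF and IGF1 changed the 30 genes was tested within each stage, and limma called none of them at any stage. In morulae the edgeR quasi-likelihood test called 2, DESeq2 called 7 and 3 passed in the authors' deposited table, as did 1 in blastocysts. With limma on log2(value + 1) of the deposited signal, 0 of 28 genes tested were called at 4-6 cells, 0 of 28 at 9-16 cells, 0 of 29 in morulae and 0 of 30 in blastocysts. Over all genes 0% were called at each stage too, of 13385, 14139, 13254 and 13029 tested, with 12, 293, 4203 and 2049 genes at an unadjusted p under 0.05. Among the 30 genes, 0, 0, 10 and 4 reached that unadjusted p. The median log2 difference, FLI minus control, of the tested genes was 0.07 and 0.00 at 4-6 and 9-16 cells, beside -0.01 and 0.01 over all genes. In morulae it was 0.28 and in blastocysts 0.33, beside 0.08 and 0.04. Positive differences numbered 18 of 28, 14 of 28, 21 of 29 and 24 of 30. The share of positive differences over all genes is not given here, so these counts cannot be read against it. TPI1 did not reach the mean of 1 needed for the test before the blastocyst stage, nor ENO2 at 9-16 cells. A p that misses the threshold does not show that the groups are alike. A difference between arms in the step from stage to stage was tested as an interaction, which called 0 of the 29 genes and 0% of all genes at each of the 3 steps, with 0, 3 and 3 of the 29 at an unadjusted p under 0.05.

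At the early stages the groups overlapped for every one of the 30 genes that was tested, where 0.344% of all genes at 4-6 cells (0.269% higher and 0.0747% lower in FLI) and 1.8% at 9-16 cells (1.19% and 0.615%) did not overlap.

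At 4-6 cells same-numbered FLI and control libraries deviated together, and the groups were also read pair by pair. Both replicate 6 libraries stood apart from the others, and differently numbered libraries were not compared. The pairing by number is therefore an assumption. Within the 4 pairs, replicates 6 to 9, FLI was higher in every pair for 4 of the 28 genes, against 5.11% of all genes, and lower in every pair for 1, against 5.98%. SLC2A3 had a signal of 6.47, 12.5, 14.4 and 21.0 in FLI replicates 6, 7, 8 and 9 and 5.56, 8.14, 11.3 and 14.8 in control replicates of the same numbers. Each FLI library lay above its partner, while the groups overlapped (limma with the replicate block, log2 difference 0.39, unadjusted p = 0.0145, adjusted p = 0.998). The others higher in every pair were HK2 (log2 difference 0.36, unadjusted p = 0.0437, adjusted p = 0.998), ALDOA (log2 difference 0.21, unadjusted p = 0.0455, adjusted p = 0.998) and PKM (log2 difference 0.17, unadjusted p = 0.0740, adjusted p = 0.998), and MPC1 was lower in every pair (log2 difference -0.12, unadjusted p = 0.253, adjusted p = 0.998). With the block 0 of the 28 genes and 0 of all 13385 were called. An unadjusted p under 0.05 was reached by 3 of the former and by 549 of the latter. The count of directions by pair was added after seeing the data.

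At the morula stage 9 of 29 did not overlap, against 21.3% of all genes, 8.73% higher and 12.5% lower. GAPDH, PDHA1, PKM, PFKFB2, SLC2A3, PFKP and PDK3 were higher in every FLI library, and MPC2 and LDHB lower. The smallest p belonged to MPC2. Its signal was 48.3, 48.2, 81.0 and 80.5 in FLI replicates 2, 4, 6 and 7 and 283, 209 and 104 in control replicates 1, 3 and 7 (log2 difference -1.54 ± 0.38, unadjusted p = 0.00232, adjusted p = 0.0630). MPC1 was at 78.3, 79.4, 91.4 and 138 in FLI and 364, 278 and 134 in the same controls (log2 difference -1.33 ± 0.37, unadjusted p = 0.00523, adjusted p = 0.0691). For both carriers, control replicates 1 and 3 were high and control replicate 7 lay near the highest FLI library.

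Several genes of glucose use had higher means in FLI morulae. PKM was at 485, 487, 377 and 667 in FLI and 172, 179.6 and 359 in control replicates 1, 3 and 7 (log2 difference 1.14 ± 0.35, unadjusted p = 0.00806, adjusted p = 0.0769). HK2 was at 245, 208, 177 and 179 in FLI and 43.0, 62.9 and 184 in controls (log2 difference 1.32 ± 0.44, unadjusted p = 0.0135, adjusted p = 0.0906). SLC2A3 was at 1128, 1132, 1033 and 1474 in FLI and 443, 512 and 1032 in controls (log2 difference 0.94 ± 0.36, unadjusted p = 0.0252, adjusted p = 0.116). In each of these 3 genes control replicate 7 sat beside the FLI libraries and control replicates 1 and 3 far below. PDHA1 was at 166, 193, 161 and 146 in FLI and 48.8, 88.9 and 108 in controls (log2 difference 1.08 ± 0.31, unadjusted p = 0.00577, adjusted p = 0.0709), and here all 3 controls were lower. LDHB was at 394, 464, 585 and 483 in FLI and 854, 845 and 653 in controls (log2 difference -0.71 ± 0.28, unadjusted p = 0.0305, adjusted p = 0.126), with control replicate 7 nearest to the FLI libraries.

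Control replicates 1 and 3 are the morula libraries with the largest share of reads in genes under 1000 bases, and they had 13.1% and 14.7% in genes over 3000 bases, against 22.6% in control replicate 7 and 21.6 to 29.2% in FLI libraries. Reads of mitochondrially encoded genes were 4.30 to 6.11% in controls and 1.39 to 3.95% in FLI. Listed sperm markers summed to 26.1 to 120 CPM in control morulae and 7.37 to 30.8 CPM in FLI morulae, and lineage markers to 832 to 2038 and 813 to 2708 CPM. The FLI minus control difference had a Spearman correlation with exon length of 0.47 across the 29 genes and 0.47 across all 13254. Genes under 1000 bases had a median log2 difference of -1.02 over 1632 genes and those over 3000 bases of 0.37 over 4643. MPC1 and MPC2, the 2 genes here under 1000 bases, had a median of -1.44, and the 13 genes over 3000 bases had one of 0.59. The part of read composition in the differences of single genes was not tested. Without control replicate 7, limma called 8 of 28 genes, against 34.8% of all genes, namely HK2, SLC2A3, PKM, PFKFB2 and PDHA1 higher and MPC1, MPC2 and LDHB lower in FLI. The edgeR quasi-likelihood test on recovered reads of all 7 libraries called MPC1 and MPC2, against 6.72% of all genes, and DESeq2 called 7 of the 29, against 19.2%. In the authors' deposited table, HK2, MPC2 and PDHA1 had a false discovery rate under 0.05 at the morula stage (0.00597, 0.0354 and 0.0374), against 10.6% of all genes listed. HK2 and PDHA1 were higher and MPC2 lower in FLI. That table also lists the shallow control library.

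**Figure D5:**
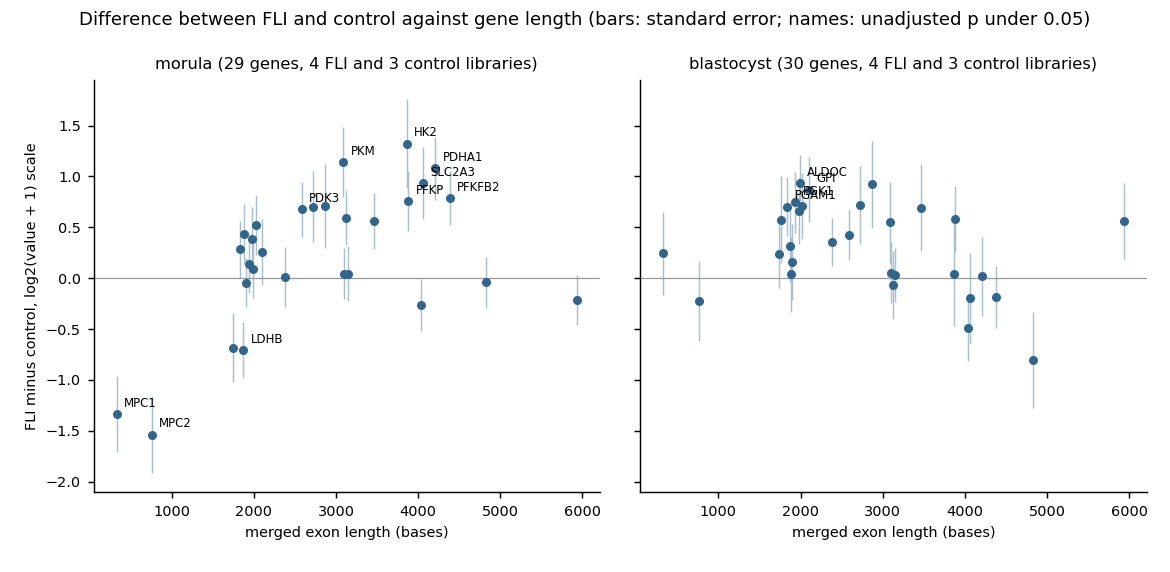
FLI minus control difference on the log2(value + 1) scale, with its standard error, against merged exon length in bases, for 29 genes in morulae (left) and 30 in blastocysts (right). Genes with an unadjusted p under 0.05 are named, and at the morula stage MPC1 and MPC2, the shortest, are at -1.33 and -1.54.

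In blastocysts 7 of 30 genes did not overlap between groups, against 12.8% of all genes, and all 7 were higher in FLI, against 6.93% of all genes. They were ALDOC, GPI, PGK1, PGAM1, ALDOA, ENO1 and PDK3, of which all but PDK3 are enzymes of glycolysis. ALDOC was at 64.6, 85.6, 65.6 and 54.8 in FLI replicates 5 to 8 and 30.6, 29.6 and 44.9 in control replicates 5, 7 and 8 (log2 difference 0.94 ± 0.28, unadjusted p = 0.00599, adjusted p = 0.197). GPI was at 944, 515, 609.7 and 535 in FLI and 341, 282 and 426 in controls (log2 difference 0.87 ± 0.32, unadjusted p = 0.0198, adjusted p = 0.260). PGAM1 was at 1998, 1697, 1761 and 1834 in FLI and 1208, 952 and 1211 in controls (log2 difference 0.70 ± 0.29, unadjusted p = 0.0331, adjusted p = 0.286). PGK1 was at 867, 688, 837 and 1152 in FLI and 569, 431 and 572 in controls (log2 difference 0.74 ± 0.30, unadjusted p = 0.0315, adjusted p = 0.284). None passed the adjustment. On recovered reads the edgeR quasi-likelihood test and DESeq2 called 0 of the 30 too, against 0% and 3.64% of all genes. In the authors' deposited table ALDOC alone of the 30 had a false discovery rate under 0.05 (0.0436), higher in FLI, against 4.55% of all genes listed. That table also lists the shallow control library of this stage. In blastocysts length went the other way than in morulae, with a Spearman correlation of -0.32 across the 30 genes and -0.29 across all 13029. The 7 genes are between 1838 and 2588 bases long. Markers of blastocyst lineages summed to 32040 to 54860 CPM in FLI and 27600 to 29560 CPM in controls without overlap, and mitochondrially encoded genes held 0.646 to 5.58% and 1.33 to 7.65% of reads. The part of either in these differences was not tested.

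Ratios of isozymes within a library were compared between FLI and control embryos for 13 pairs at up to 4 stages, and none passed. The smallest p that the exact two-sided permutation test can give with 4 against 3 or 4 against 4 libraries is 0.0286. It was reached by PDK3 to PDK1 at 4-6 cells and in morulae, and by SLC16A3 to SLC16A1 in blastocysts. After adjustment over all isozyme pairs and stages each was 0.324. To pass, many of the ratios would have had to reach that smallest p together. That none passed therefore does not show that the ratios were alike. The 12 ratios available at 4-6 cells were also read by pairs of same-numbered libraries. Of these, PDK3 to PDK1 and SLC2A3 to SLC2A1 were higher in FLI in all 4 pairs and LDHB to LDHA lower in all 4. These directions were not tested, and the pairing by number is an assumption. The log2 ratio of PDK3 to PDK1 reads in morulae was 2.57 ± 0.13 (n = 4) in FLI and 1.59 ± 0.33 (n = 3) in controls. That of HK2 to HK1 was 1.57 ± 0.24 and 0.01 ± 1.36 (p = 0.0571, exact permutation test). The ratio of LDHB to LDHA was 3.73 ± 0.27 in FLI and 4.39 ± 0.07 in control embryos of that stage. That gap is small beside the move of 6.69 between stages.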

How the data were processed

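Per the labels' protocols, RNA came from pools of 15 bovine embryos, by PicoPure isolation and the SMART-Seq v4 low-input kit. FastQC, HISAT2, featureCounts and edgeR with build ARS-UCD1.2 are named per the submitters' processing notes, with neither versions nor the strand setting (not given in the sources used here). The authors deposited, for each stage, a table of signal per gene and library, which are counts divided by a factor for each library. Its log2 fold changes, p-values and false discovery rates are the authors' own, and their test score was deposited too. All values were whole multiples of the signal of 1 read within 0.001, so reads were recovered for 100% of values. Depth was 7013325 to 169438740 reads in the 30 libraries used. The other 2, with 83409 and 2995 reads, were left out.

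FLI and control were compared within a stage with limma 3.58.1 in R 4.3.3 (trend, robust) on log2(signal + 1), for genes with a mean of at least 1. Stages were compared on log2(CPM + 1) of recovered reads after joint TMM normalisation (edgeR 4.0.16) over the 14225 genes in all 4 tables, of which 13381 had a mean of at least 1 CPM, in 1 limma model of 8 groups. P-values were adjusted over all genes tested (Benjamini-Hochberg, threshold 0.05). Isozyme ratios are log2 of reads with 0.5 added, tested with exact permutations. The scripts were tested on simulated data. The edgeR quasi-likelihood test and DESeq2 1.42.0 on recovered reads, other pseudocounts, filters and normalisations, left-out libraries and a replicate block were alternatives. Same-numbered FLI and control libraries deviated together at 4-6 cells, with correlations of 0.473 to 0.924 over the 4 pairs. Differently numbered libraries were not compared in this way, and the labels do not say what a number stands for. The pairing is therefore an assumption. The 30 genes and all lists were chosen with earlier results of these data known. Any of the 30 genes may be named, and of other lists at most 4 called genes per comparison, those with the largest change.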

Additional observations from a re-analysis of the deposited data

Results flagged for a closer look

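Of 172 groups of 4 libraries tested, 21 held a library whose gap to the nearest other was above Dixon's critical value, and chance gives about 1 in 20. At 4-6 cells, 13 of the 21 were replicate 6 libraries, the deepest of that stage and those with the lowest share of reads in long genes. Their levels, in CPM, were 64.51 (FLI) and 69.52 (control) for LDHB, 99.36 and 97.34 for MPC1, 44.91 and 53.26 for MPC2, and 2.077 and 4.084 for PDHB. FLI replicate 6 was also apart for HK1 at 201.3 CPM and, on the low side, for HK2 at 2.192 CPM. For these genes control replicate 6 lay at 202.8 and 1.91 CPM, without being flagged. Control replicate 6 was apart for ALDOC at 20.67, ENO1 at 62.65 and PGK1 at 16.92 CPM. The part of read composition in these values was not tested.

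At 9-16 cells PDK3 in FLI replicate 13 (175.2 CPM) and PGAM1 in FLI replicate 12 (182.2 CPM) stood apart. Among FLI morulae these were GPI in replicate 7 (1042 CPM), LDHA in replicate 4 (53.02 CPM), MPC1 in replicate 7 (148.0 CPM) and PGAM1 in replicate 6, on the low side (1237 CPM). Among FLI blastocysts they were HK2 in replicate 5 (233.7 CPM) and PDK3 in replicate 7 (83.72 CPM).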

How the results depend on the processing

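Counts are of the 30 genes called unless said otherwise. FLI against control in morulae gave 0 with limma, against 0% of all genes. The edgeR quasi-likelihood test gave 2, against 6.72% of all genes, and DESeq2 gave 7, against 19.2%. The replicate block over all 8 libraries, with the shallow control replicate 4 in that fit, gave 1, against 0.128%. That gene was PFKFB4 (log2 3.89, adjusted p = 0.0271, limma with the block). With 1 library left out the count was 0 to 8, beside 0 to 4620 of all genes. With all 32 libraries the 4-6 to 9-16 cell step gave 2 in controls and 2 in FLI embryos, the 9-16 cell to morula step 15 in controls, the morula to blastocyst step 4 in controls and 5 in FLI embryos, and 6 isozyme ratios at the last step. The share of all genes called in that fit is not given here, so these counts cannot be read against it. Leaving out 1 library gave 4 to 6 (controls) and 4 to 7 (FLI) at the earliest step, 24 to 25 and 23 to 24 into the morula, and 14 to 15 and 17 to 20 into the blastocyst, with 5 to 7, 10 to 12 and 10 to 11 ratios. Of all genes, these fits called 2753 to 3499 in controls and 3388 to 4142 in FLI embryos at the earliest step. Into the morula they called 9079 to 9906 and 9407 to 9545, and into the blastocyst 3130 to 4706 and 4333 to 5669. Values that changed sign all came from fits that include a shallow library. In morulae, FLI minus control was -0.42 for PFKP and 0.0066 for LDHB with all 8 libraries, and -1.53 for PFKP, 1.22 for MPC1 and 0.84 for LDHB with the replicate block. With all 32 libraries the control changes were 0.0035 for PFKP and -0.96 for ALDOC into the morula, and -0.11 for PDHA1 and -0.82 for SLC16A1 into the blastocyst. At 4-6 cells, with same-numbered libraries taken as pairs, the replicate block left 0 called. Of the values of single genes under alternatives, 1488 kept direction and call, 67 lost the call, 17 gained it and 9 changed sign, and of those of isozyme ratios 444 kept both and 9 lost the call. The depth of the 2 shallow libraries, with 478 and 42 reads in these genes, limits those fits.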
